A study of Mus musculus with 8 samples.

Results

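Trp53, the gene for the transcription factor p53, and 33 genes known as p53 targets were followed across RNA-seq libraries of C3H10T1/2, a mesenchymal line first grown from C3H mouse embryos. The 34 genes were taken by symbol from the deposited gene table of 18605 genes, in which every one of them was found. The list was drawn up with earlier results of these same libraries known, so the number of its members that lie in one direction is given as a description beside the same number over all genes. The cells carried either a non-target control (NC) or an shRNA against Nap1l2, a nucleosome assembly protein, delivered by lentivirus (KD-Nap1l2). RNA was sequenced from both lines either uninduced or at day 7 of culture in an osteogenic medium, the latter groups being named NC-7d and KD-Nap1l2-7d, with 2 libraries in each of the 4 groups. The medium described in the study's methods holds dexamethasone, ascorbic acid and β-glycerol phosphate, so both 7-day groups had received a glucocorticoid as well as 7 days of culture. Nothing in the labels says that the 2 libraries of a group came from separate cultures, so p-values measure the spread between libraries, which may be technical. The cell line, the lentiviral transduction and the serum-containing medium are shared by all groups, and how many shRNA sequences or clones the knockdown line holds is not given in the sources used here.

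p53 is kept low in resting cells by the ubiquitin ligase Mdm2, which is itself a p53 target and so closes a feedback loop. DNA damage, oncogene activity and other stresses stabilise the p53 protein, which then binds pairs of a short DNA motif and activates genes for cell cycle arrest, apoptosis, DNA repair and metabolism. Much of this control acts on the p53 protein, so the level of Trp53 mRNA and the level of its targets need not move together. In mesenchymal cells p53 is known as a brake on proliferation, a driver of senescence and a negative regulator of osteoblast differentiation.

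Library totals ran from 17420284 to 19427359 estimated counts. Of the 34 genes, 32 passed the filter on low counts and were tested among 13470 genes. Pmaip1, which encodes the BH3-only protein Noxa, had 0 to 3 counts in a library, and Perp, which encodes a membrane protein of the p53 apoptosis programme, had 1 to 12, so neither was tested. Nap1l2 itself had a count of 3 in both NC libraries, of 2 and 7 in KD-Nap1l2, of 15 and 5 in NC-7d, and of 7 and 13 in KD-Nap1l2-7d. A knockdown was therefore not detectable at this depth, where 3 counts correspond to 0.154 to 0.172 CPM, and the directions below are those between libraries labelled KD-Nap1l2 and libraries labelled NC. The 12 mesenchymal markers summed to 7461 to 10129 FPKM (the authors' value scaled to gene length and library size) before induction and to 3715 to 6379 after it. Endothelial markers summed to at most 1.6 FPKM and epithelial markers to at most 2.5. Of the 6 haematopoietic markers in the table, Ptprc, Itgam and Cd3e were near 0, and the sum was 8.75 and 12.2 FPKM in KD-Nap1l2-7d against 4.76 and 6.58 in NC-7d, carried mostly by Cd68 and Lyz2, whose part in the comparison of these groups was not tested. Adipocyte markers summed to 8.25 to 25.1 FPKM before induction and to 138 to 181 after it, but the single markers did not move together. Of 5 adipocyte markers 2 passed the filter on low counts. On induction 1 of them had log2 fold changes of 4.09 (control) and 3.12 (shRNA), and 1 had -1.45 and -1.01. The 6 osteoblast markers summed to 3.06 to 14.9 over all 8 libraries. The replicates of KD-Nap1l2 and of NC-7d were the least alike, with correlations of log2 CPM across genes of 0.975 and 0.977, against 0.986 for NC and 0.990 for KD-Nap1l2-7d.

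The short motif that p53 binds in pairs was found near the start of several members, for most of them without a partner in the window. RefSeq windows of 300 bases (250 before and 50 after a start site, build GRCm38.p6) were at hand for 26 of the 34 genes, with none used for Zmat3, Tnfrsf10b, Pmaip1, Perp, Trp53inp1, Ddb2, Xpc and Rrm2b. The p53 half-site, a motif of 10 bases that reads as the same pattern on both strands, matched without mismatch in a window of 12 of these 26 genes (46.2%), against 9.55% of all 27025 genes with a window. A pair of half-sites with up to 3 mismatches and a spacer of up to 13 bases was found for 6 of the 26 (23.1%) and for 7.63% of all genes. A match is a description of the sequence, and p53 binding was not measured in these libraries. Sequence outside these windows was not searched. The stretches below are upstream of the start sites of 5 members whose values are given in this report, outside every annotated exon of the GENCODE annotation of that build, with the half-site in capitals, 5′ to 3′ on the strand of the gene.
Mdm2 (chr10:117710910-117710969, minus strand, half-site 186 bases before the start): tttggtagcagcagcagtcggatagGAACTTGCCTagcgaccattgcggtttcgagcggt
Ccng1 (chr11:40755437-40755496, minus strand, half-site 185 bases before the start): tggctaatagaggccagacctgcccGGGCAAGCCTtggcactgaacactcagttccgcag
Bax (chr7:45467065-45467124, minus strand, half-site 201 bases before the start): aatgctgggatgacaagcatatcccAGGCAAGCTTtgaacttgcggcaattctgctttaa
Sesn1 (chr10:41887241-41887300, plus strand, half-site 173 bases before the start): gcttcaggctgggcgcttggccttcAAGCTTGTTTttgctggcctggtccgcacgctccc
Trp53 (chr11:69580259-69580318, plus strand, half-site 75 bases before the start): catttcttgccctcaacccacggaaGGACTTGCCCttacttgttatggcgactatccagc
The half-sites of Bax and Sesn1 each belonged to a pair with 2 mismatches, with spacers of 5 and 3 bases, and that of Trp53 to a pair with 3 mismatches and a spacer of 13 bases. The half-sites of Mdm2 and Ccng1 had no such partner within the window. The other members with a half-site were Aen, Ei24, Siva1, Polk, Gadd45a, Ppm1d and Rchy1.

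The members spanned a wide range of levels. Averaged over the 8 libraries, Ccng1 (cyclin G1, which recruits a phosphatase to Mdm2) was highest at 146 FPKM, followed by Phlda3 (a repressor of Akt) at 137, Bax (the pore-forming apoptosis effector) at 98.0, Plk2 (a polo-like kinase) at 79.9, Trp53 at 76.6 and Mdm2 at 63.4. The order of these neighbours was not fixed, since Phlda3 stood above Ccng1 in the NC group (119 ± 0.898 against 99.2 ± 6.26 FPKM, SD, n = 2) and below it in the KD-Nap1l2-7d group (159.6 ± 5.64 against 213 ± 52.4 FPKM). At the lower end, Apaf1 averaged 6.85 FPKM, Zmat3 5.46 and Tigar 2.26, and Perp and Pmaip1 averaged 0.105 and 0.0300 FPKM.

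**Figure D1:**
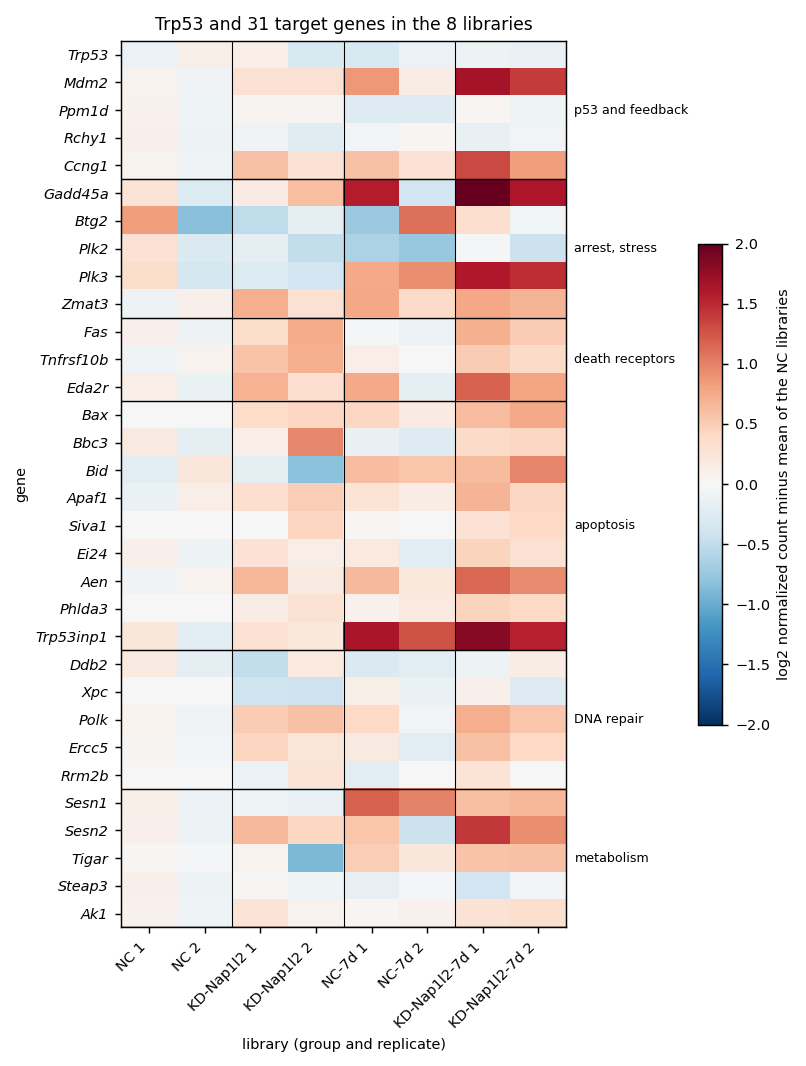
Heat map of the 32 tested genes (rows, grouped by role) in the 8 libraries (columns), in log2 normalized count relative to the mean of the 2 NC libraries, where red is higher and blue lower. Mdm2, Ccng1, Gadd45a, Plk3, Aen and Sesn2 are reddest in the KD-Nap1l2-7d libraries, Sesn1 is reddest in the NC-7d libraries, Trp53inp1 is red in all 4 induced libraries, and the row of Trp53 is pale throughout.

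Libraries labelled KD-Nap1l2 were first set against NC at each time, which asks how the p53 programme stood when Nap1l2 was targeted. Without induction, 21 of 32 members had a positive log2 fold change with a median of 0.23, against 51.5% of all genes and a median of 0.01. After 7 days, 27 of 32 were positive with a median of 0.34, against 49.1% of all genes and a median of -0.01. No member passed an adjusted p of 0.05 in the edgeR quasi-likelihood test at either time, where 0.0223% of all genes passed as higher and 0.0594% as lower without induction, and 0% in each direction after 7 days. At an unadjusted p under 0.05, 6 members were higher and 1 was lower without induction (7.02% and 6.73% of all genes), and 10 were higher and 1 was lower after 7 days (3.72% and 4.13% of all genes). DESeq2 called 1 member higher at each time, Tnfrsf10b without induction (adjusted p = 0.00809) and Mdm2 after 7 days (adjusted p = 0.00713), where it called 1.44% and 0.26% of all genes higher. It called 0 members lower, and 1.97% and 0.327% of all genes. The median at the first time was 0.12 when NC replicate 2 was left out and 0.14 when KD-Nap1l2 replicate 2 was.

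Both libraries labelled KD-Nap1l2 lay above both NC libraries for 15 members without induction (22% of all genes) and for 24 members after 7 days (21% of all genes). Both lay below for 1 member without induction, Xpc (21.2% of all genes), and for 2 after 7 days, Sesn1 and Rchy1 (21% of all genes). The comparisons at the 2 times share no library, but both set the shRNA line against the control line. Separate transductions for the 2 times are not stated. Separation at both times therefore cannot be taken as an independent repeat. Members that stood higher without overlap at both times were Mdm2, Ccng1, Fas, Tnfrsf10b, Eda2r, Bax, Apaf1, Siva1, Ei24, Aen, Phlda3, Polk, Ercc5 and Sesn2, which is 14 of 32, and 6.39% of all genes did so. No member stood lower at both times, and 6.62% of all genes did. With 2 libraries against 2, an exact permutation test of a single gene cannot go below p = 0.333, so separation is a description of these libraries.

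**Figure D2:**
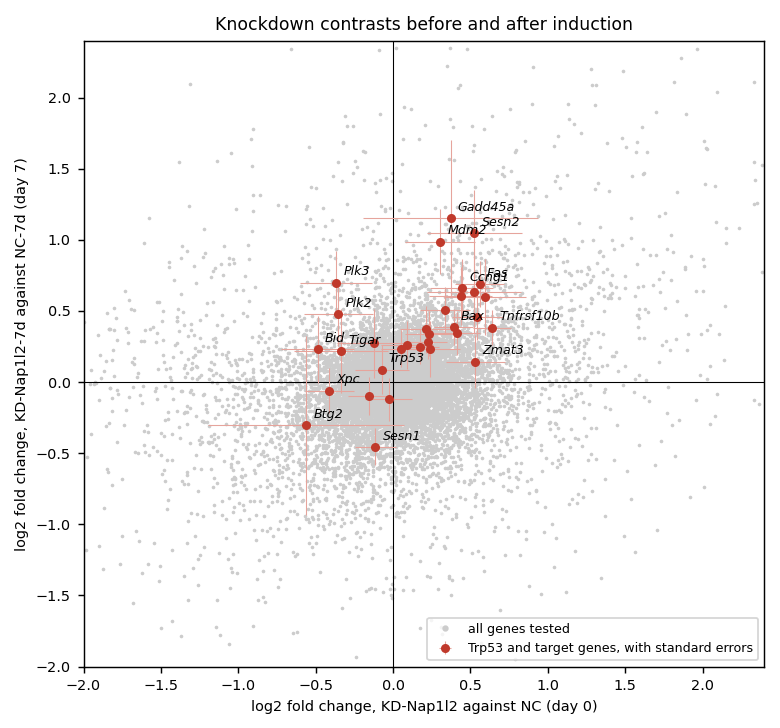
Log2 fold change of KD-Nap1l2 against NC without induction (x axis) and of KD-Nap1l2-7d against NC-7d (y axis) for all genes tested (grey, those beyond the axes not drawn) and for the 32 members (red, bars are standard errors). Most members lie in the upper right part, Mdm2, Sesn2 and Gadd45a near 1 on the y axis, Trp53 near 0 on both axes and Sesn1 lowest on the y axis at -0.46.

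Trp53 mRNA showed no separation between any pair of groups compared. Its normalized counts were 2446 and 2890 in NC, 2928 and 2142 in KD-Nap1l2, 2150 and 2463 in NC-7d, and 2479 and 2424 in KD-Nap1l2-7d. The ranges overlapped in each of the 4 comparisons. The log2 fold change of KD-Nap1l2 against NC was -0.07 ± 0.17 (SE, n = 2 per group, edgeR adjusted p = 0.887) without induction and 0.09 ± 0.17 (adjusted p = 0.950) after 7 days. Its sign turned without NC replicate 2 (0.05) or KD-Nap1l2 replicate 2 (0.13) at the first time, and without NC-7d replicate 1 (-0.0075) at the second.

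Mdm2, the ligase that marks p53 for degradation, had 2350 and 2115 normalized counts in the NC libraries and 2764 and 2747 in KD-Nap1l2. After induction it had 4054 and 2465 in NC-7d and 7046 and 5882 in KD-Nap1l2-7d. The KD-Nap1l2-7d libraries were thus the highest of all 8, and the NC-7d libraries differed from each other by more than the NC and KD-Nap1l2 groups did. The log2 fold change of KD-Nap1l2 against NC was 0.30 ± 0.22 (SE, edgeR adjusted p = 0.603) without induction and 0.99 ± 0.23 (adjusted p = 0.452) after 7 days. The value after 7 days ranged from 0.67 to 1.39 with 1 library left out.

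Ccng1 had 6704 and 6041 normalized counts in the NC libraries, 9531 and 7810 in KD-Nap1l2, 9504 and 7791 in NC-7d, and 15929 and 11377 in KD-Nap1l2-7d. The groups did not overlap at either time, with log2 fold changes of 0.44 ± 0.20 (edgeR adjusted p = 0.385) and 0.66 ± 0.20 (adjusted p = 0.519). The 2 remaining genes of the feedback loop had smaller values. Ppm1d, a phosphatase that switches the damage response off, differed by 0.05 and 0.23 on the log2 scale, and Rchy1, a further ubiquitin ligase for p53, by -0.16 and -0.10.

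**Figure D3:**
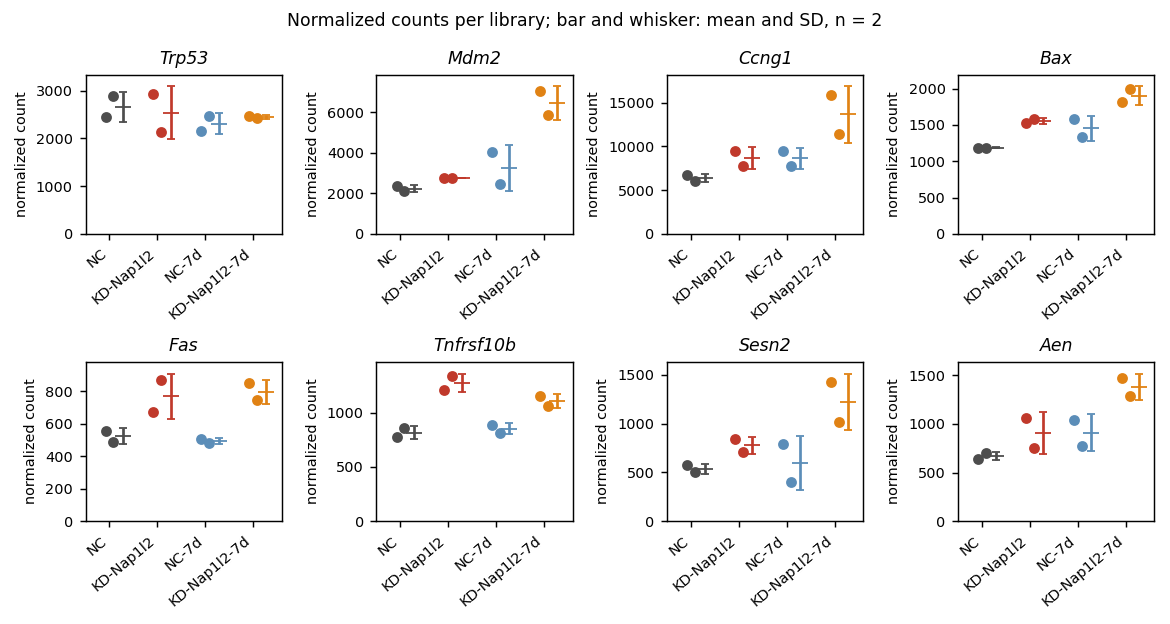
Normalized counts of 8 members in each library (points), with the mean and SD of each group (bar and whisker, n = 2). Trp53 overlaps between groups, and Mdm2, Ccng1, Bax, Sesn2 and Aen are highest in KD-Nap1l2-7d. Every member shown except Trp53 separates between the 2 lines at both times, as 6.39% of all genes did upward.

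The 3 genes for death receptors all stood higher without overlap at both times, as did 6.39% of all genes. Fas, the receptor for Fas ligand, had 558 and 488 normalized counts in the NC libraries against 673 and 869 in KD-Nap1l2, and 507 and 482 in NC-7d against 850 and 746 in KD-Nap1l2-7d. Its levels in the control line were nearly the same at both times, and the differences were 0.56 ± 0.16 (edgeR adjusted p = 0.190) and 0.69 ± 0.16 (adjusted p = 0.452) on the log2 scale. Tnfrsf10b, the mouse TRAIL receptor, had 774 and 859 counts in the NC libraries, 1214 and 1336 in KD-Nap1l2, 891 and 816 in NC-7d, and 1157 and 1067 in KD-Nap1l2-7d. Its log2 fold changes were 0.64 ± 0.12 (edgeR adjusted p = 0.10) and 0.38 ± 0.12 (adjusted p = 0.519), the former being the smallest adjusted p of any member in that comparison. With 1 library left out, the log2 fold change of the first comparison ranged from 0.57 to 0.72 for Tnfrsf10b and from 0.36 to 0.73 for Fas. Eda2r, a receptor of the same family that binds ectodysplasin, had 540 and 450 counts in the NC libraries, 800 and 621 in KD-Nap1l2, 834 and 429.5 in NC-7d, and 1111 and 850 in KD-Nap1l2-7d, so that NC-7d replicate 1 came close to the knockdown libraries.

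Genes of the intracellular apoptosis programme were mostly higher too, 8 of 9 tested without induction and 9 of 9 after 7 days, with medians of 0.24 and 0.34. Of all genes, 51.5% and 49.1% were higher at these times, and 6.39% stood higher without overlap at both. Bax had 1189 and 1179 normalized counts in the NC libraries, 1528 and 1580 in KD-Nap1l2, 1578 and 1329 in NC-7d, and 1812 and 1993 in KD-Nap1l2-7d. Its replicates lay close together, and its log2 fold change was 0.39 ± 0.13 at both times (edgeR adjusted p = 0.233 and 0.522). Aen, a nuclease that degrades DNA in apoptosis, had 637 and 697 counts in the NC libraries, 1057 and 751 in KD-Nap1l2, 1043 and 773 in NC-7d, and 1478 and 1285 in KD-Nap1l2-7d. Its difference was 0.44 ± 0.20 (adjusted p = 0.394) and 0.61 ± 0.20 (adjusted p = 0.532). Smaller differences without overlap were seen for Apaf1, the scaffold of the apoptosome (0.41 and 0.34), Siva1, a death receptor adaptor (0.24 and 0.34), Ei24, a membrane protein of the endoplasmic reticulum (0.21 and 0.37), and Phlda3 (0.23 and 0.28). Siva1 was close to a tie without induction, with 512.3 counts in NC replicate 2 and 512.8 in KD-Nap1l2 replicate 1. Its value there ranged from 0.0079 to 0.43 with 1 library left out. Bbc3, which encodes Puma, had 295 and 228 counts in the NC libraries and 284 and 507 in KD-Nap1l2, overlapping groups, and 234 and 218 in NC-7d against 338 and 347 in KD-Nap1l2-7d. Bid, the BH3-only protein cut by caspase-8, was the member of this group with a negative value without induction (-0.49 ± 0.24), from overlapping libraries.

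Among DNA repair genes, 2 of 5 stood higher without overlap at both times, as did 6.39% of all genes. Polk, a translesion DNA polymerase, had 789 and 710.5 normalized counts in the NC libraries, 1065 and 1122 in KD-Nap1l2, 984 and 722 in NC-7d, and 1240 and 1101 in KD-Nap1l2-7d. Its log2 fold changes were 0.54 ± 0.16 (edgeR adjusted p = 0.210) and 0.46 ± 0.16 (adjusted p = 0.553). Ercc5, an endonuclease of nucleotide excision repair, differed by 0.34 ± 0.16 and 0.51 ± 0.16. The damage-recognition genes of the same pathway did not share this pattern, since Xpc had 536 and 538 counts in the NC libraries against 406 and 402 in KD-Nap1l2 (-0.41 ± 0.16, adjusted p = 0.317) and Ddb2 overlapped (-0.12 ± 0.24). Rrm2b, a ribonucleotide reductase subunit, differed by 0.09 and 0.26.

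The metabolic targets were divided. Sesn2, a sestrin that restrains mTORC1, had 576 and 503 normalized counts in the NC libraries, 840 and 714 in KD-Nap1l2, 791 and 399 in NC-7d, and 1430 and 1022 in KD-Nap1l2-7d. The KD-Nap1l2-7d libraries were the highest, and of the NC-7d libraries one lay within the range of KD-Nap1l2 and one below all uninduced libraries. The log2 fold changes were 0.53 ± 0.30 (edgeR adjusted p = 0.497) and 1.04 ± 0.30 (adjusted p = 0.511), the latter from 0.63 to 1.62 with 1 library left out. Sesn1, its paralog, had the opposite sign, at -0.11 ± 0.13 (adjusted p = 0.746) and -0.46 ± 0.13 (adjusted p = 0.504). Tigar, a fructose bisphosphatase, gave -0.34 and 0.22, Steap3, a ferrireductase, -0.03 and -0.12, and Ak1, an adenylate kinase, 0.17 and 0.25. Of the arrest and stress genes, Zmat3, an RNA-binding protein, was separated without induction (524 and 600 counts in the NC libraries, 931 and 695 in KD-Nap1l2) and overlapped after 7 days. Gadd45a, Plk2 and Plk3 were separated upward after 7 days and overlapped without induction, where Plk2 stood at -0.35 and Plk3 at -0.37. Of all genes, 22% were separated upward without induction and 21% after 7 days. In this group 2 of 5 were higher without induction (median -0.35) and 4 of 5 after 7 days (median 0.48). The shares of all genes were 51.5% and 49.1%. Btg2, an antiproliferative immediate early gene, varied widely between replicates, with 1820 and 572 counts in the NC libraries and 608 and 2199 in NC-7d.

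The change of the knockdown difference from day 0 to day 7 was tested directly. It was positive for 24 of 32 members with a median of 0.16, against 47.8% of all genes and a median of -0.02. No member passed the edgeR test, as no gene did (0% in each direction), and the smallest adjusted p of a member was 0.579, for Plk3 (1.07 ± 0.32). At an unadjusted p under 0.05, 2 members were higher, Plk2 and Plk3 (3.5% of all genes), and DESeq2 called 0 members higher (0.49% of all genes) and 0 lower (0.238%). For Mdm2 the change was 0.68 ± 0.32 (adjusted p = 0.717) and for Sesn2 0.52 ± 0.43 (adjusted p = 0.830). The median of the members was 0.06 without NC replicate 1 and 0.07 without KD-Nap1l2-7d replicate 1.

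Osteogenic induction for 7 days was then compared within each line, in groups that share no library between the lines but share them with the comparisons above. In the control line 21 of 32 members were higher with a median log2 fold change of 0.14, against 49.6% of all genes and a median of -0.0035. In the shRNA line 27 were higher with a median of 0.18, against 49.3% and -0.0070. The edgeR test called 2 members higher in the control line, Sesn1 and Trp53inp1, where it called 4.83% of all genes higher. In the shRNA line it called 5 higher, Plk3, Trp53inp1, Sesn1, Mdm2 and Bid, where it called 6.84% of all genes higher. It called no member lower in either line, where 3.38% and 7.36% of all genes were called lower. At an unadjusted p under 0.05, 7 members were higher in the control line (12.9% of all genes) and 10 in the shRNA line (15.3%), and 1 member, Plk2, was lower in the control line (11.6%) and none in the shRNA line (16.1%), and DESeq2 called it lower in the control line (5.11%) and 0 members lower in the shRNA line (9.45%). DESeq2 called 3 members higher in the control line (6.44% of all genes), adding Plk3, and 8 in the shRNA line (8.29%), adding Ccng1 (adjusted p = 0.0141), Aen (0.0482) and Tigar (0.0464). Without NC-7d replicate 1 the median in the control line was -0.0061, and without KD-Nap1l2 replicate 2 that in the shRNA line was 0.29. Induced libraries lay above both uninduced ones for 12 members in the control line (29.4% of all genes) and 17 in the shRNA line (30.8%), and below for 4 and 2 members (28.4% and 30.6%). The groups were separated upward in both lines for 10 members (18.6% of all genes) and downward for 1, Ppm1d (16.7%).

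**Figure D4:**
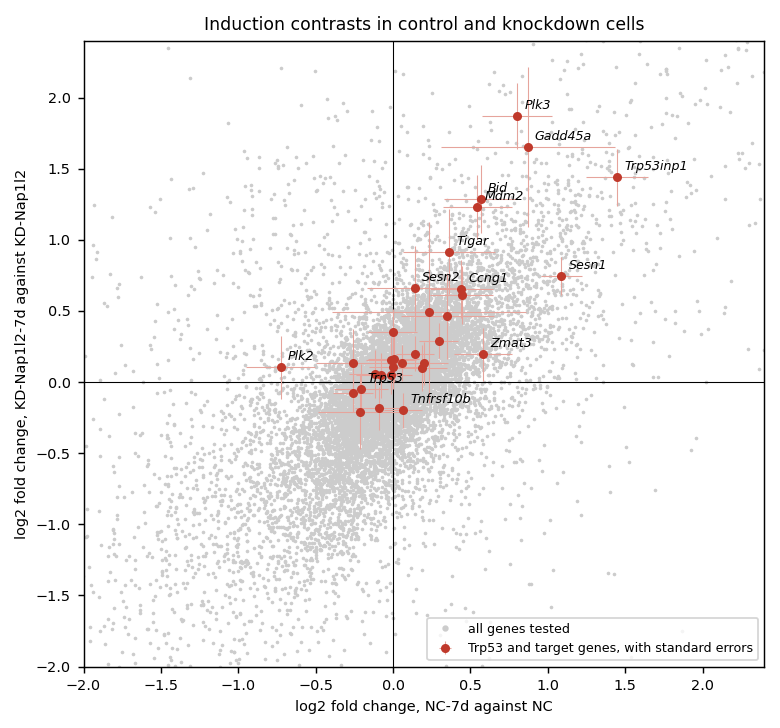
Log2 fold change of NC-7d against NC (x axis) and of KD-Nap1l2-7d against KD-Nap1l2 (y axis) for all genes tested (grey, those beyond the axes not drawn) and for the 32 members (red, bars are standard errors). Trp53inp1 and Sesn1 lie far to the right at 1.45 and 1.09, Plk3 is highest at 1.87 on the y axis, and Plk2 lies furthest to the left.

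Trp53inp1, a nuclear and autophagy protein that promotes p53-dependent apoptosis, rose in both lines. It went from 3285 and 2418 normalized counts in the NC libraries to 8735 and 6812 in NC-7d, and from 3464 and 3258 in KD-Nap1l2 to 9985 and 8274 in KD-Nap1l2-7d. Every induced library lay far above every uninduced one. The rise was 2.73-fold in the control line (log2 1.45 ± 0.20, edgeR adjusted p = 0.00713) and 2.72-fold in the shRNA line (1.44 ± 0.20, adjusted p = 0.00504), and the difference between the lines was -0.0054 ± 0.28 (adjusted p = 0.999). The adjusted p in both lines stayed under 0.05 under every alternative tried.

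Sesn1, a sestrin that curbs mTORC1 and oxidative stress, rose from 1533 and 1307 normalized counts in the NC libraries to 3218 and 2815 in NC-7d. In the shRNA line it rose from 1335 and 1287 to 2156 and 2244. The libraries labelled KD-Nap1l2-7d were lower than both NC-7d libraries while the uninduced groups overlapped. The rise was 1.09 ± 0.13 on the log2 scale in the control line (edgeR adjusted p = 0.00440) and 0.75 ± 0.13 in the shRNA line (adjusted p = 0.0116), and the difference between the lines was -0.34 ± 0.18 (adjusted p = 0.743). In the shRNA line the adjusted p was 0.0822 without KD-Nap1l2-7d replicate 1 and 0.0898 without replicate 2.

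Plk3, a stress-responsive polo-like kinase, had 247 and 152 normalized counts in the NC libraries and 326 and 370 in NC-7d (0.80 ± 0.23, edgeR adjusted p = 0.0715, DESeq2 adjusted p = 0.0309). It rose from 160.5 and 149 in KD-Nap1l2 to 588 and 543 in KD-Nap1l2-7d (1.87 ± 0.23, edgeR adjusted p = 0.00329), a 3.66-fold rise and the largest among the members called. Its paralog Plk2 went the other way in the control line, from 6080 and 4086 counts in the NC libraries to 3208 and 2935 in NC-7d (-0.73 ± 0.22, adjusted p = 0.0905), and gave 0.10 ± 0.22 in the shRNA line. Gadd45a, a growth arrest and DNA damage gene, had 264 and 358 counts in KD-Nap1l2 and 1234 and 722 in KD-Nap1l2-7d, with 700 and 181 in the NC-7d libraries, and was not called in either line (adjusted p = 0.385 and 0.0873).

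Mdm2 rose 2.35-fold in the shRNA line (log2 1.23 ± 0.23, edgeR adjusted p = 0.0136), and its value in the control line was 0.55 ± 0.23 (adjusted p = 0.186). The call in the shRNA line was lost without KD-Nap1l2 replicate 2 (adjusted p = 0.0543), KD-Nap1l2-7d replicate 1 (0.105) or KD-Nap1l2-7d replicate 2 (0.0589), and Mdm2 was called in the control line without NC-7d replicate 2 (0.0299). Bid had 1119 and 1517 normalized counts in the NC libraries and 1994 and 1914 in NC-7d, and rose from 1143 and 738 in KD-Nap1l2 to 2015 and 2574 in KD-Nap1l2-7d. Its rise in the shRNA line was 1.29 ± 0.24 (adjusted p = 0.0140, and 0.0545 or 0.104 without KD-Nap1l2-7d replicate 1 or 2), against 0.57 ± 0.24 (adjusted p = 0.189) in the control line. Ccng1, Aen and Tigar were separated upward in both lines without an edgeR call, at 0.44 and 0.65, 0.44 and 0.61, and 0.36 and 0.92 on the log2 scale. With 1 library left out, the values in the shRNA line ranged from 0.39 to 0.88 for Aen and from 0.52 to 1.48 for Tigar. Trp53 mRNA itself differed by -0.21 ± 0.17 (adjusted p = 0.505) and -0.05 ± 0.17 (adjusted p = 0.875), the latter being 0.19 without KD-Nap1l2 replicate 1.

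The deposited transcript counts show which transcripts carried these values. Sesn1 was counted over 2 transcripts that begin at different sites, 1 at chr10:41887439, next to the half-site printed above, and 1 at chr10:41809935. The transcript from the inner site held 1102 and 934 estimated counts in the NC libraries, 924 and 846 in KD-Nap1l2, 2377 and 2325 in NC-7d and 1640 and 1685 in KD-Nap1l2-7d, which is 74.9% of the gene's counts over all libraries. The transcript from the outer site held 454 and 464, 440 and 391, 629 and 611, and 511 and 464 estimated counts in the same order. The mean of the inner transcript was 2.31 times higher in NC-7d than in NC, and that of the outer one 1.35 times, without a test, and estimates for transcripts of 1 gene share reads. Both Trp53inp1 transcripts were higher after induction, by 2.57 and 2.60 times in the control line and by 2.60 and 2.78 times in the shRNA line. The 2 main Mdm2 transcripts were 2.54 and 2.03 times higher in KD-Nap1l2-7d than in KD-Nap1l2. Both were matched to the same GENCODE transcript, which begins at chr10:117710758, so whether they begin at different sites could not be read here.

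**Figure D5:**
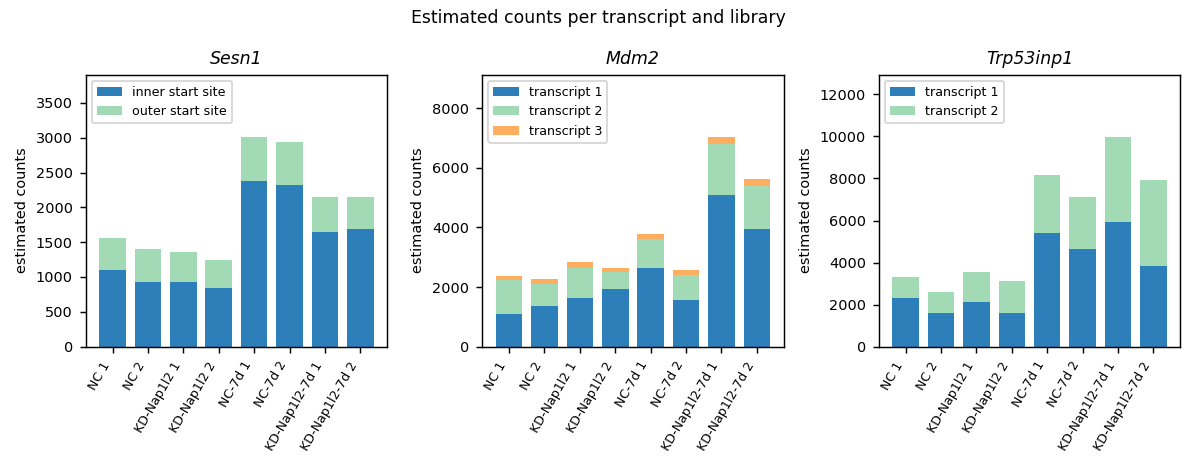
Estimated counts per library, not normalized, stacked by transcript for Sesn1, Mdm2 and Trp53inp1. The inner-start transcript makes up most of Sesn1 and is tallest in the NC-7d libraries, and transcript 1 of Mdm2 is tallest in the KD-Nap1l2-7d libraries at 5093 and 3943.

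Further genes of the pathway were read from 3 lists. Of 25 other p53 targets in the table, all tested, 20 were higher in KD-Nap1l2 than in NC with a median of 0.57, and 20 were higher after 7 days with a median of 0.30, with no edgeR call at either time. The unadjusted p was under 0.05 for 10 of them as higher (7.02% of all genes) and 0 as lower (6.73%) without induction, and for 7 as higher (3.72%) and 1 as lower (4.13%) after 7 days, and DESeq2 called 5 and 0 as higher, namely Cdkn1a, Psrc1, Dcxr, Ddit4 and Bcl6 without induction, and none as lower, where it called 1.44% and 0.26% of all genes higher. Cdkn1a, the CDK inhibitor p21 and the best known arrest target, had 5263 and 4468 normalized counts in the NC libraries, 7325 and 11378 in KD-Nap1l2, 8086 and 6868 in NC-7d, and 12286 and 11022 in KD-Nap1l2-7d. It was separated at both times, with log2 fold changes of 0.94 (edgeR adjusted p = 0.140, DESeq2 adjusted p = 0.00211) and 0.64 (edgeR adjusted p = 0.544). The former ranged from 0.59 to 1.23 with 1 library left out. On induction edgeR called Abhd4, Fdxr and Bcl6 as higher in the control line (0.61, 0.98 and 1.55), where it called 4.83% of all genes higher. In the shRNA line it called Abhd4 and Bcl6 as higher (0.68 and 1.10, 6.84% of all genes) and Rap2b and Ckap2 as lower (-0.53 and -0.51, 7.36%). The calls of Abhd4 and Fdxr in the control line were lost when either NC library, either KD-Nap1l2-7d library, or one of the NC-7d libraries (replicate 1 for Abhd4, replicate 2 for Fdxr) was left out, with adjusted p-values from 0.0582 to 0.198. In the shRNA line all 4 calls were lost without KD-Nap1l2-7d replicate 1 (0.104 for Abhd4, 0.0801 for Bcl6, 0.140 for Rap2b and 0.120 for Ckap2), those of Abhd4, Rap2b and Ckap2 also without KD-Nap1l2-7d replicate 2 or KD-Nap1l2 replicate 2, and that of Ckap2 also without either NC library or KD-Nap1l2 replicate 1.

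Of 24 regulators of p53, 22 were tested, and edgeR called none between the lines at either time. The unadjusted p was under 0.05 for 1 as higher without induction (7.02% of all genes), the p53 relative Trp63 (1.29, DESeq2 adjusted p = 0.0122). After 7 days it was under 0.05 for 1 as lower (4.13% of all genes), Trp53bp2 (-0.29). DESeq2 called no regulator but Trp63 between the lines, and both genes are named here after their values were seen. Mdm4, the Mdm2 partner that holds p53 inactive, had 2644 and 2530 normalized counts in the NC libraries, 2870 and 3189 in KD-Nap1l2, 3118 and 2672 in NC-7d, and 2785 and 2714 in KD-Nap1l2-7d, so that its groups were separated without induction and overlapped after 7 days. On induction, Hipk2, a kinase that phosphorylates p53, and Trp53bp2, which encodes the p53-binding protein ASPP2, rose in both lines, by 1.11 and 1.04 in the control line and by 0.75 and 0.62 in the shRNA line. These were the regulators that edgeR called higher, where it called 4.83% and 6.84% of all genes higher in the control and shRNA lines. Chek2, a DNA damage kinase, fell in the shRNA line (-0.69, edgeR adjusted p = 0.0348), where 7.36% of all genes were called lower. Without KD-Nap1l2-7d replicate 1 the adjusted p in the shRNA line was 0.109 for Hipk2, 0.108 for Trp53bp2 and 0.216 for Chek2, and each of these calls was also lost without KD-Nap1l2-7d replicate 2, that of Hipk2 without KD-Nap1l2 replicate 2 (0.0553), and that of Chek2 without either NC or either KD-Nap1l2 library. Without NC replicate 1 the adjusted p of Hipk2 in the control line was 0.0587.

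The last list held 22 cell cycle genes that p53 represses through p21. All 22 were higher in KD-Nap1l2 than in NC (median 0.32) and all 22 were lower in KD-Nap1l2-7d than in NC-7d (median -0.32), with no edgeR or DESeq2 call and none at an unadjusted p under 0.05. Without induction 14 of them stood higher without overlap (22% of all genes). After 7 days the groups overlapped for every one of them, as for Ccnb1 (cyclin B1) with 485 and 1193 normalized counts in NC-7d and 532 and 635 in KD-Nap1l2-7d. On induction of the shRNA line all 22 were lower (median -1.07) and separated from KD-Nap1l2, as were 30.6% of all genes. There edgeR called 7 as lower (7.36% of all genes), namely Mki67, Top2a, Bub1, Bub1b, Cdc20, Cdc25c and Kif23. DESeq2 called 15 as lower (9.45% of all genes), and 18 had an unadjusted p under 0.05 (16.1%). Each of these calls was lost without KD-Nap1l2-7d replicate 1, where the adjusted p ran from 0.0951 for Kif23 to 0.250 for Bub1, and each without replicate 2. Those of Bub1, Cdc20 and Mki67 were also lost without any one of the NC or KD-Nap1l2 libraries, and those of Top2a and Bub1b without KD-Nap1l2 replicate 2. That of Bub1 was lost with RLE size factors (adjusted p = 0.05002) and in both limma fits on FPKM, and that of Mki67 with the replicate number as a block (0.0539) and in limma on log2(FPKM + 1). In the control line 20 of 22 were lower (median -0.36), and edgeR called none as lower (3.38% of all genes). There 2 were lower at an unadjusted p under 0.05 (11.6% of all genes), and DESeq2 called 0 (5.11%). Between the NC-7d libraries Ccnb1 was lower in replicate 1 than in replicate 2. Mdm2 (4054 and 2465), Sesn2 (791 and 399), Eda2r (834 and 429.5) and Gadd45a (700 and 181) were higher in replicate 1. Other members, such as Btg2 (608 and 2199) and Plk3 (326 and 370), were lower in it. The part of this spread in the comparisons with NC-7d was not tested.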

How the data were processed

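RNA-seq of C3H10T1/2 cells in 4 groups of 2 libraries was analysed. The authors deposited estimated counts per gene and per transcript, without normalization, and FPKM values scaled to gene length and library. The submitters' processing notes name RSEM, Bowtie2, BWA and the build GRCm38.p6, with no versions, roles or order. The authors' own comparison tables hold fold changes, p-values and q-values from DESeq2 and were not used. The members and gene lists were chosen with earlier results of these data known.

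Estimated counts of 18605 genes (41.1% with a value that is not whole) were rounded. Counts were normalized by TMM, filtered with filterByExpr (13470 genes) and fitted over all 8 libraries by group with edgeR 4.0.16 in R 4.3.3. Contrasts were tested by quasi-likelihood F test, p-values were adjusted after Benjamini-Hochberg over all 13470 genes, and an adjusted p under 0.05 was a call. Standard errors were derived from the log2 fold change and the square root of its F statistic. A normalized count is the count divided by the effective library size and multiplied by the mean of those sizes, and groups do not overlap where both libraries of one lie above both of the other. Counts of 0 allow up to 3 counts, for counting error only. Scripts were tested on simulated data.

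The genes named are Trp53, Mdm2, members called in any contrast, members separated in 1 direction in both knockdown contrasts, members separated in both induction contrasts with a mean log2 fold change of at least 0.5 in size, Cdkn1a, Mdm4 and called genes of the pathway lists. Other members named in the text serve to describe their role group, and Ccnb1 was chosen after its values were seen. Promoter windows are from RefSeq (GRCm38.p6), and GENCODE gave transcript starts and exons. Alternatives were a DESeq2 1.42.0 fit, size factors by RLE, all genes unfiltered, a minimum of 10 counts per library, a fit of the compared libraries alone, limma 3.58.1 on log2(FPKM + 1) and log2(FPKM + 0.1), the replicate number as a block, and each library left out.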

Additional observations from a re-analysis of the deposited data

How the results depend on the processing

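Most values kept their direction under the alternatives, but most of the edgeR calls named above were lost under at least 1 of them. Those that held throughout were Trp53inp1 in both lines, Plk3 in the shRNA line, and Sesn1, Bcl6 and Trp53bp2 in the control line. DESeq2 called 1 member higher in the knockdown comparison at each time, 1 lower in the control line on induction and 8 higher in the shRNA line on induction. With the replicate number as a block, 1 member was called lower on induction in the control line, and Ccng1 was called higher in the shRNA line (adjusted p = 0.0322), while Mki67 (0.0539) and Ckap2 (0.0513) lost their calls there. A fit of only the libraries compared ended the calls of Abhd4 (0.0753) and Fdxr (0.0711) in the control line and of Chek2 (0.0533) and Ckap2 (0.0662) in the shRNA line, and both limma fits those of Bub1, Chek2 and Ckap2. The numbers do not pair the libraries, since deviations from group means correlated at -0.0612 to 0.104 between same-numbered libraries. With 1 library left out, members called higher ranged from 0 to 3 in KD-Nap1l2 against NC, 2 to 4 in NC-7d against NC and 2 to 7 in KD-Nap1l2-7d against KD-Nap1l2. Calls over all genes also varied widely between these fits, so these counts alone do not set the members apart from all genes. The medians of the members ranged from 0.12 to 0.28, -0.0061 to 0.20 and 0.16 to 0.29 in the same order of comparisons. For the change of the knockdown difference the median ranged from 0.063 to 0.22. The members with a positive value, an alternative chosen after seeing the data, numbered 21 to 26, 16 to 24 and 23 to 27 in those 3 comparisons, 27 to 28 in KD-Nap1l2-7d against NC-7d and 19 to 26 for the change. With a library left out, each without a call, values turned sign for Trp53 (-0.32 to 0.13 and -0.0075 to 0.19 between the lines at the first and second time, -0.25 to 0.19 in the shRNA line on induction, -0.046 to 0.40 for the change), for Mdm4 after 7 days (-0.18 to 0.041) and, for the change, in Ccng1 (-0.049 to 0.43), Aen (-0.055 to 0.44) and Trp53inp1 (-0.24 to 0.20). The cause was not tested. RLE size factors moved the median of all genes by less than 0.01. Depth limits Nap1l2, Pmaip1 and Perp.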
